A study of Homo sapiens with 8 samples.

Results

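The microRNAs of the paralogous miR-23a/27a/24-2 and miR-23b/27b/24-1 clusters were examined in a human embryonic kidney cell line, HEK293, after transfection of a synthetic RNA. The members were chosen by name as the 3′ arms hsa-miR-23a-3p, hsa-miR-23b-3p, hsa-miR-27a-3p, hsa-miR-27b-3p and hsa-miR-24-3p, and all 5 had a row among the 2962 small RNA features of the count table, 342 of which were microRNAs. The 4 scramble libraries came from cells given a scrambled control mimic, and the 4 tDR libraries from cells given a mimic of the fragment (tDR) cut from the 3′ end of tRNA-Asp-GTC. In both groups the mimic was used at 50 nM with the lipid reagent Lipofectamine RNAiMax, the cells were harvested 48 h later, and TRIzol RNA went into OTTR-seq, a method in which a reverse transcriptase joins both adapters while it copies the RNA. All cells had therefore been transfected, and untransfected cells were not analysed here. Whether the replicates of a group were separate cultures is not stated, so each p-value speaks for the spread among these libraries, which may be technical. Values of a group are listed below in the order of its replicates 1 to 4.

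Library totals ran from 4016295 to 10246336 counts. MicroRNAs were a small fraction of them, 0.476%, 0.649%, 0.804% and 0.948% in the scramble replicates and 0.682%, 0.536%, 0.355% and 0.414% in the tDR replicates. The lowest of these values, in tDR libraries 3 and 4, lay below every scramble library (group means 0.719% ± 0.203 and 0.497% ± 0.145, SD, n = 4 each, exact two-sided permutation p = 0.143). All 4 listed microRNAs of the HOX loci, which mark this embryonic line (miR-10a-5p, miR-10b-5p, miR-196a-5p and miR-196b-5p), were present, at a summed 98.2 to 144 CPM in the scramble and 80.8 to 150 CPM in the tDR libraries. CPM are counts per 1000000, scaled here by TMM, which assumes that most features do not differ between libraries. Of 7 blood markers 2 had a row, miR-486-5p and miR-223-3p, at a summed 0 to 16 counts in the scramble and 8 counts in each tDR library. No marker of kidney tubule, endothelium or nerve passed the test between groups, with 3, 1 and 1 tested. Kidney tubule markers summed to 96 to 222 counts in the scramble and 83 to 132 in the tDR libraries. Endothelial markers summed to 29 to 60 and 35 to 73 counts, and nerve markers, mostly miR-9-5p, to 240 to 657 and 229 to 420. The means of miR-9-5p, 48.8 and 45.7 CPM, were close to those of miR-196b-5p, the highest HOX row, at 49.7 and 45.1 CPM. Row by row, level alone thus did not set the HOX list apart from miR-9-5p. As a sum, the HOX list lay above the nerve markers in every library. The nerve markers summed to 34.0 to 57.2 CPM in the scramble and 31.8 to 57.2 CPM in the tDR libraries. The muscle markers summed to 2 to 24 and 11 to 28 counts a library.

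MicroRNAs are cut from hairpin transcripts and guide Argonaute proteins to messenger RNAs, mainly through the seed, bases 2 to 8 from the 5′ end. The miR-23, miR-27 and miR-24 hairpins lie side by side and are made from a shared primary transcript, with a second copy of the whole cluster elsewhere in the genome. miR-23 is known to repress glutaminase, miR-27 is known for roles in adipocyte and vessel growth, and miR-24 represses genes that drive the cell cycle. In kidney, miR-24 has been studied in injury from loss of blood flow, and members of these clusters belong to early lists of microRNAs linked to hypoxia.

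The 5 mature sequences are shown first because they set what the counts can tell apart. All 5 matched a RefSeq entry (GRCh38.p14), and each is printed 5′ to 3′ with its seed in capitals.
hsa-miR-23a-3p: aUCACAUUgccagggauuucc
hsa-miR-23b-3p: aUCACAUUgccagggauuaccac
hsa-miR-27a-3p: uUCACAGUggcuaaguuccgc
hsa-miR-27b-3p: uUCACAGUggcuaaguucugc
hsa-miR-24-3p: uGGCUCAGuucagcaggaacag
The a and b copies share their seed in both pairs. Counted from the 5′ end, the miR-23 copies differ by 1 substitution over 21 bases, U19A from miR-23a-3p to miR-23b-3p, and miR-23b-3p is 2 bases longer. The miR-27 copies differ only by C19U from miR-27a-3p to miR-27b-3p. A read that ends before base 19 cannot be given to either copy, and how such reads were counted was not given in the sources used here, so the split between copies is uncertain. The seeds of miR-23 and miR-27 differ from each other by 1 base, U7G, whereas that of miR-24 differs from both at all 7 positions. RefSeq lists 1 further microRNA with the miR-23 seed, hsa-miR-23c, and 1 with the miR-27 seed, hsa-miR-9985, which were not analysed here; the miR-24 seed belongs to miR-24-3p alone.

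The a cluster spans 373 bases of chromosome 19 on the minus strand (13836287 to 13836659, GRCh38), and its 3 hairpins MIR23A, MIR27A and MIR24-2 all lie in an exon of the long non-coding gene AC020916.1 (GENCODE release 29). The b cluster spans 881 bases of chromosome 9 on the plus strand (95085208 to 95086088), within the protein-coding gene C9orf3. MIR23B and MIR27B are intronic, and MIR24-1 overlaps an exon of a C9orf3 transcript. On the opposite strand of MIR24-1 lies MIR3074, and whether the counting used strand was not given in the sources used here. Mature miR-24-3p can come from either cluster. Its 2 hairpins, printed 5′ to 3′ with the mature 3′ arm in capitals, carry the same 22 bases.
MIR24-1: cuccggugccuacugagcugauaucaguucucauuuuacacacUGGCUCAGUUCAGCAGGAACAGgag
MIR24-2: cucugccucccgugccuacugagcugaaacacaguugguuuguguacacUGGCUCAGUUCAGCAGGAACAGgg
The 5′ arms do tell the loci apart. They differ at 6 of 22 bases, in capitals here.
hsa-miR-24-1-5p: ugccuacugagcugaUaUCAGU
hsa-miR-24-2-5p: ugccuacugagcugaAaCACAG
Of these, hsa-miR-24-2-5p, from the a cluster, was read, with 4, 7, 1 and 2 counts in the scramble replicates and 2, 1, 4 and 2 in the tDR replicates. hsa-miR-24-1-5p was not analysed here. Counts of miR-24-3p are thus a sum over both clusters.

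miR-24-3p was the most abundant member and miR-27a-3p the least. miR-24-3p held 2379 counts over all 8 libraries and ranked 27 among the 342 microRNA rows by mean count. miR-23a-3p held 1146 counts (rank 41), miR-23b-3p 502 (rank 79), miR-27b-3p 321 (rank 113) and miR-27a-3p 31 (rank 272). Divided by mature length, the mean levels were 1.70 ± 0.576, 0.865 ± 0.215, 0.345 ± 0.0703, 0.244 ± 0.0686 and 0.0268 ± 0.0223 CPM per base in that order (SD, n = 8). On this scale each member exceeded the next in 8 of 8 libraries except that miR-27b-3p was above miR-23b-3p in tDR library 1. The ranges over libraries of miR-23b-3p and miR-27b-3p overlapped (0.249 to 0.462 and 0.146 to 0.331 CPM per base), as did those of miR-24-3p and miR-23a-3p. Together the 5 members made up 1.05% to 1.33% of microRNA counts in the scramble libraries and 0.979% to 1.20% in the tDR libraries.

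The 2 clusters did not show the same copy on top at both positions. At miR-23 the a copy led and at miR-27 the b copy led, in 8 of 8 libraries each. miR-23a-3p had 125, 188, 108 and 292 counts in the scramble replicates and 107, 120, 91 and 115 in the tDR replicates. miR-23b-3p had 60, 83, 44 and 122 counts in the scramble libraries and 49, 52, 51 and 41 in the tDR libraries. In every library the a copy was thus well above its paralog. The log2 ratio of a to b, with 0.5 added to each count, was 1.17 ± 0.188 (SD, n = 8), a 2.26-fold excess of miR-23a-3p, which differed from equality (exact two-sided sign-flip test over 8 libraries, p = 0.00781, adjusted p = 0.00781 over 2 pairs, the smallest the test can give).

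The share of miR-23a-3p in the miR-23 counts moved little between libraries. It was 67.6%, 69.4%, 71.1% and 70.5% in the scramble replicates and 68.6%, 69.8%, 64.1% and 73.7% in the tDR replicates. The exact 95% binomial intervals of single libraries, which cover counting error only, reached from 55.6% to 72.0% in tDR library 3 and from 66.1% to 80.4% in tDR library 4, the lowest and the highest value, and so overlapped. Pooled by group the share was 69.8% (66.8% to 72.6%) in scramble and 69.2% (65.4% to 72.8%) in tDR libraries. The log2 ratio differed by -0.036 between the groups (exact permutation p = 0.8, adjusted p = 0.8 over the 12 ratios and shares tested between groups). Without tDR library 3 this difference was 0.073.

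At miR-27 the order was turned. miR-27b-3p had 29, 44, 24 and 77 counts in the scramble replicates and 51, 40, 22 and 34 in the tDR replicates. miR-27a-3p had 0, 4, 7 and 5 counts in the scramble libraries and 4, 2, 6 and 3 in the tDR libraries, so no library held more than 7. The a copy was thus near the limit of detection throughout, since a count of 0 allows up to 3 counts. Its share of miR-27 counts was 8.81% over all libraries (31 of 352 counts, exact 95% interval 6.06% to 12.3%). By library it ranged from 0% in scramble library 1 to 22.6% in scramble library 3 and 21.4% in tDR library 3. For the 0 of 29 counts in scramble library 1 the exact 95% interval reached up to 11.9%. The mean log2 ratio of a to b was -3.42 ± 1.32 (SD, n = 8), which differed from equality (exact sign-flip p = 0.00781, adjusted p = 0.00781). By group the share was 8.42% (4.89% to 13.3%) in scramble and 9.26% (5.28% to 14.8%) in tDR libraries, and the log2 ratio differed by 0.52 between groups (exact permutation p = 0.657, adjusted p = 0.717). Without scramble library 1 this difference was -0.21.

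**Figure D1:**
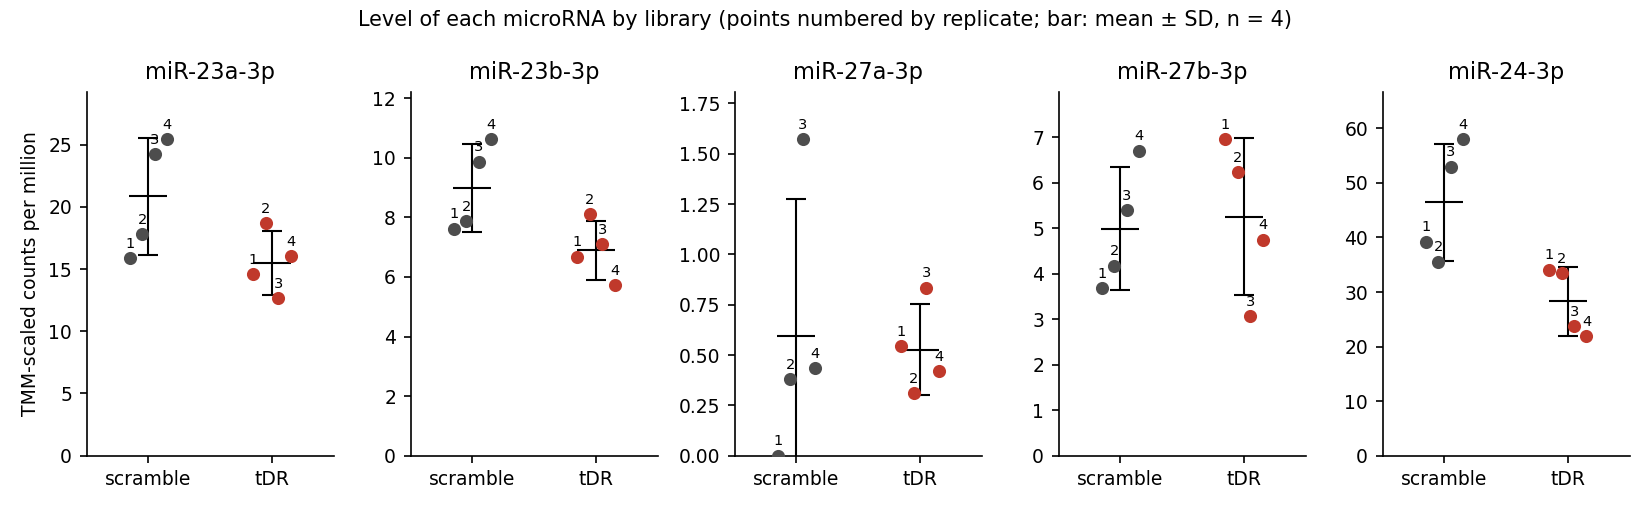
TMM-scaled CPM of each microRNA in each library (vertical axis, its own scale from 0 in each panel) for the scramble and tDR groups; points are libraries numbered by replicate, and bars are the mean ± SD, with that of miR-27a-3p running below the axis. miR-24-3p is the member whose groups do not overlap, at 35.5 to 58.0 in scramble and 21.9 to 34.1 in tDR libraries.

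The tDR and scramble libraries were then compared to ask which of these microRNAs differ once the fragment is supplied. miR-24-3p was lower in the tDR libraries, the miR-23 copies lay lower without passing the test, and miR-27b-3p passed in neither direction. In bulk RNA, fewer cells that make a microRNA and less of it per cell cannot be told apart. miR-24-3p stood at 39.2, 35.5, 53.0 and 58.0 CPM in the scramble replicates and at 34.1, 33.5, 23.8 and 21.9 CPM in the tDR replicates. All 4 tDR libraries lay below all 4 scramble libraries, with the smallest gap between tDR library 1 and scramble library 2. The means were 46.4 ± 10.7 and 28.3 ± 6.36 CPM (SD, n = 4 each), and miR-24-3p fell by 0.71 on the log2 scale (SE 0.19, edgeR quasi-likelihood adjusted p = 0.03 over 1761 tested features). Of the 4 members tested, 1 was called lower and 0 higher, and 2 (miR-24-3p and miR-23a-3p) had an unadjusted p below 0.05 and were lower. Over all tested features edgeR called 6.7% in either direction and 1.36% lower, and among the 196 tested microRNAs alone it called 4.59% lower. An unadjusted p below 0.05 was found for 21.5% of tested features, and for 8.69% with the lower level in the tDR libraries. Of the 196 tested microRNAs, 59 had an unadjusted p below 0.05 in either direction, and 159 had a log2 fold change below 0. Groups that did not overlap occurred in 13.3% of tested features, and with the tDR libraries lower in 5.51% of tested features and in 10.2% of tested microRNAs.

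The call of miR-24-3p depended on single libraries. It was lost without scramble library 3 (adjusted p = 0.0698), scramble library 4 (0.0946), tDR library 3 (0.0742) or tDR library 4 (0.107), with log2 fold changes from -0.85 to -0.60 over the 8 fits that leave out a library, and without tDR libraries 3 and 4 together (log2 fold change -0.46, edgeR adjusted p = 0.232). These 2 libraries are also those with the lowest share of microRNA counts, whose part in the result was not tested. Scaling on microRNA rows alone, which centres microRNAs near 0, moved the median of all features from 0.02 to 0.36 and left miR-24-3p at -0.37 (SE 0.18, edgeR adjusted p = 0.208). Over all alternatives its adjusted p ran from 0.00604 to 0.232, and the log2 fold change stayed below 0.

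miR-23a-3p stood at 15.9, 17.8, 24.2 and 25.4 CPM in the scramble replicates and at 14.6, 18.7, 12.7 and 16.05 CPM in the tDR replicates. tDR libraries 2 and 4 lay within the scramble range, so the groups overlapped. The log2 fold change was -0.42 (SE 0.20, edgeR adjusted p = 0.229), with means of 20.8 ± 4.70 and 15.5 ± 2.55 CPM (SD, n = 4 each). miR-23b-3p stood at 7.62, 7.87, 9.88 and 10.6 CPM in the scramble libraries and at 6.67, 8.10, 7.09 and 5.72 CPM in the tDR libraries. Here tDR library 2 lay within the scramble range, and the log2 fold change was -0.38 (SE 0.22, edgeR adjusted p = 0.339). Both values were close to the median of the tested microRNAs, -0.33.

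miR-27b-3p stood at 3.68, 4.17, 5.39 and 6.70 CPM in the scramble replicates and at 6.95, 6.23, 3.06 and 4.74 CPM in the tDR replicates. The tDR group held both the highest and the lowest library. The log2 fold change was 0.069 (SE 0.29, edgeR adjusted p = 0.928), and its approximate 95% interval, from -0.50 to 0.64, leaves room for a change in either direction. The sign turned under total-count scaling (-0.081) and when any library of replicate number 1 or 2 was left out (-0.11 at the lowest, without tDR library 1). It moved up to 0.41 (SE 0.25, edgeR adjusted p = 0.297) under scaling on microRNAs alone and to 0.40 (SE 0.31, edgeR adjusted p = 0.555) without tDR libraries 3 and 4, and no setting in which it was fitted called it. Among the 196 tested microRNAs, 164 had a lower log2 fold change than miR-27b-3p, 86 a lower one than miR-23b-3p, 78 a lower one than miR-23a-3p and 30 a lower one than miR-24-3p. miR-27a-3p did not pass the filter on low counts. It stood at 0, 0.379, 1.57 and 0.435 CPM in the scramble libraries and 0.545, 0.312, 0.834 and 0.419 CPM in the tDR libraries, and a difference was not detectable at this depth.

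**Figure D2:**
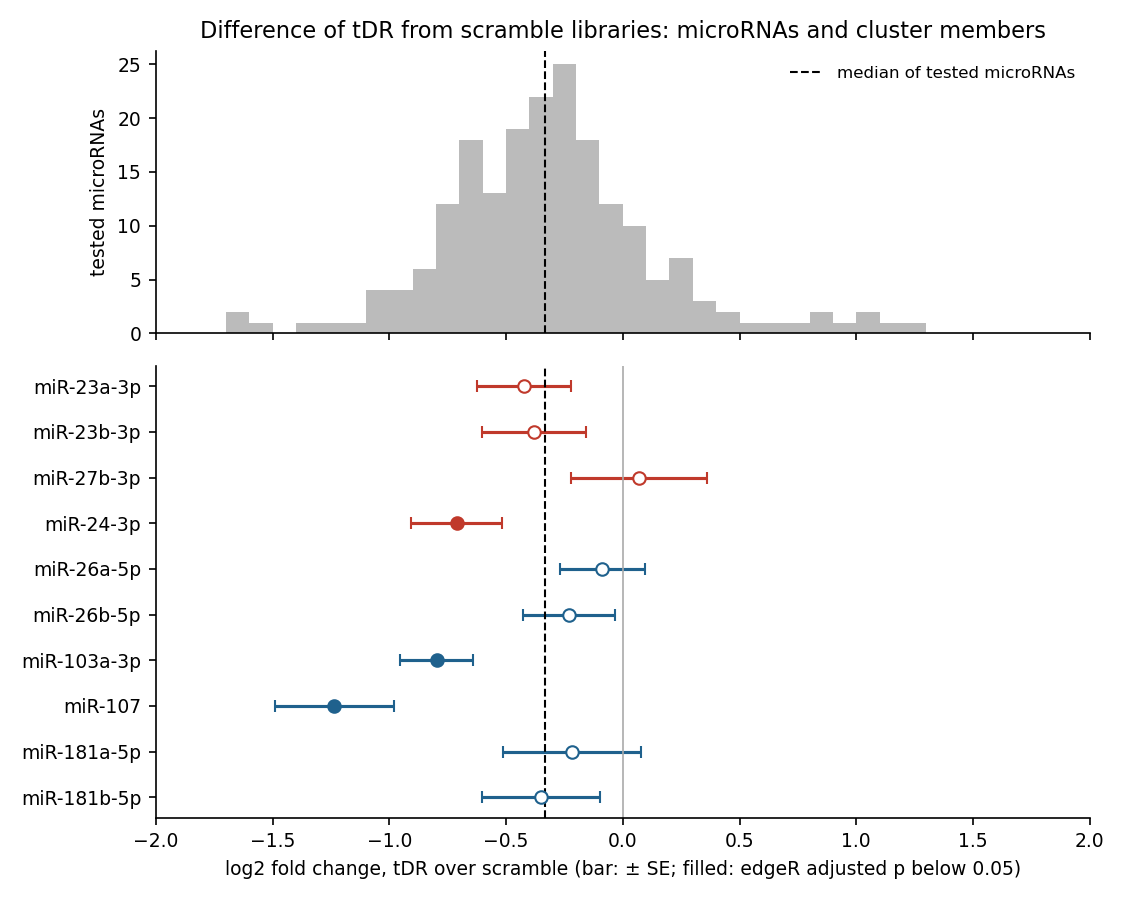
Upper panel, number of tested microRNAs (vertical axis) by log2 fold change of tDR over scramble libraries (horizontal axis), with the median of -0.33 as a dashed line; lower panel, log2 fold change ± SE of the 4 tested cluster members (red) and of 6 other hypoxia-linked microRNAs (blue), filled where edgeR's adjusted p was below 0.05. miR-24-3p lies below the median at -0.71, the miR-23 copies lie next to it and miR-27b-3p lies above it at 0.069.

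Ratios within a library do not depend on how libraries are scaled, and they were used to compare the members with each other. miR-24-3p made up 59.1%, 54.0%, 56.3% and 57.3% of the 5-member count in the scramble replicates and 54.2%, 50.1%, 50.1% and 44.9% in the tDR replicates. In all, 3 of 4 tDR libraries lay below every scramble library, and tDR library 1 lay just above scramble library 2. The means were 56.7% ± 2.11 and 49.8% ± 3.84 (SD, n = 4 each, exact permutation p = 0.0571, adjusted p = 0.229 over 12 ratios and shares). The share of miR-27b-3p was 5.54%, 6.34%, 5.73% and 6.63% in the scramble libraries and 11.1%, 9.32%, 6.45% and 9.71% in the tDR libraries. Here 3 of 4 tDR libraries lay above every scramble library, and tDR library 3 lay within the scramble range. The means were 6.06% ± 0.508 and 9.14% ± 1.94 (SD, n = 4 each, exact permutation p = 0.0571, adjusted p = 0.229). Without tDR libraries 3 and 4 the difference in the share of miR-24-3p shrank from -6.85 to -4.52 percentage points. Shares of 1 sum are not independent, so a lower share of 1 member raises the others.

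The remaining shares overlapped between the groups, and their differences moved with single libraries. miR-23a-3p made up 25.5% ± 1.33 of the 5-member count in scramble and 27.7% ± 3.99 in tDR libraries, with its highest value, 32.9%, in tDR library 4 (SD, n = 4 each, exact permutation p = 0.371, adjusted p = 0.495). miR-23b-3p made up 11.1% ± 0.730 and 12.4% ± 1.84, highest at 15.0% in tDR library 3 (exact permutation p = 0.229, adjusted p = 0.457). miR-27a-3p stayed below 2% of the sum, at 0%, 0.576%, 1.67% and 0.430% in the scramble and 0.868%, 0.466%, 1.76% and 0.857% in the tDR libraries (exact permutation p = 0.457, adjusted p = 0.549). The difference in the miR-23a-3p share was 2.21 percentage points, but 0.483 without tDR library 4 and 3.70 without tDR library 1, and that in the miR-23b-3p share was 1.25, but 0.380 without tDR library 3. That of miR-27a-3p was 0.318, between 0.0610 without tDR library 3 and 0.652 without scramble library 3. In scramble library 1, 0 of 523 counts allows a share of up to 0.574%.

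**Figure D3:**
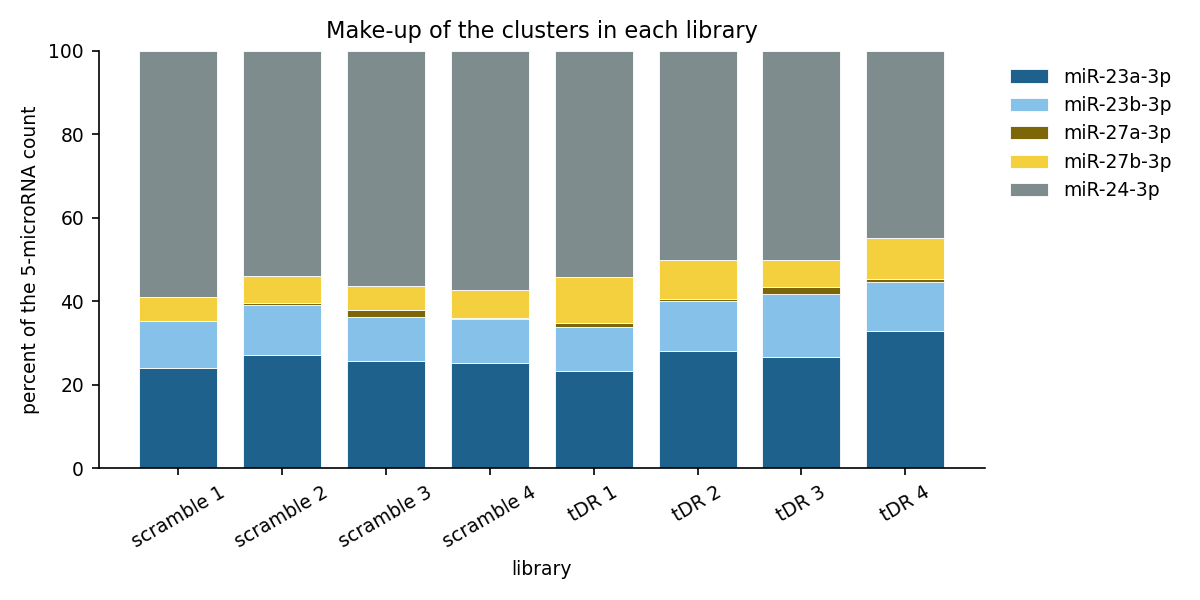
Percent of the summed count of the 5 microRNAs (vertical axis, stacked to 100) held by each member in each of the 8 libraries. The grey miR-24-3p segment covers 54.0% to 59.1% of the scramble libraries and 44.9% to 54.2% of the tDR libraries, and the yellow miR-27b-3p segment is widest in tDR library 1 at 11.1%.

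Of the 12 ratios and shares, the ratio of miR-24 to miR-27 was the 1 whose groups did not overlap. The log2 ratio of miR-24-3p to the sum of both miR-27 copies was 3.39, 2.95, 2.91 and 3.01 in the scramble replicates and 2.17, 2.34, 2.59 and 2.07 in the tDR replicates. miR-24-3p was thus 8.38 times miR-27 in the scramble and 4.90 times in the tDR libraries. The difference of -0.77 gave an exact permutation p of 0.0286, the smallest that 4 against 4 libraries can give, and an adjusted p of 0.229, so it did not pass the adjustment. It was as large without tDR libraries 3 and 4 (-0.81), and from -0.87 to -0.66 with each library left out. The sum of miR-27 counts in this ratio was small in both groups. It lay between 28 and 55 in the tDR libraries and was 29, 48, 31 and 82 in the scramble replicates.

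Against miR-23 the shift was smaller. The log2 ratio of miR-24-3p to the sum of both miR-23 copies was 0.63 ± 0.117 in scramble and 0.32 ± 0.276 in tDR libraries (SD, n = 4 each), with p = 0.0857 by exact permutation and an adjusted p of 0.257. tDR library 1, at 0.68, lay within the scramble range of 0.47 to 0.74, and the other 3 lay below it. Without tDR libraries 3 and 4 the difference shrank from -0.31 to -0.13. Within the b cluster the log2 ratio of miR-27b-3p to miR-23b-3p was -0.87 ± 0.156 and -0.44 ± 0.533 (SD, n = 4 each, exact permutation p = 0.2, adjusted p = 0.457). tDR library 3, at -1.19, was the lowest of all 8 libraries, and the other tDR libraries were the 3 highest. Without it the difference grew from 0.42 to 0.67, and without tDR library 1 it was 0.25. Within the a cluster the log2 ratio of miR-27a-3p to miR-23a-3p was -5.74 ± 1.70 and -4.76 ± 0.752 (SD, n = 4 each, exact permutation p = 0.371, adjusted p = 0.495), so in both groups miR-27a-3p was read far less than its cluster neighbour.

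**Figure D4:**
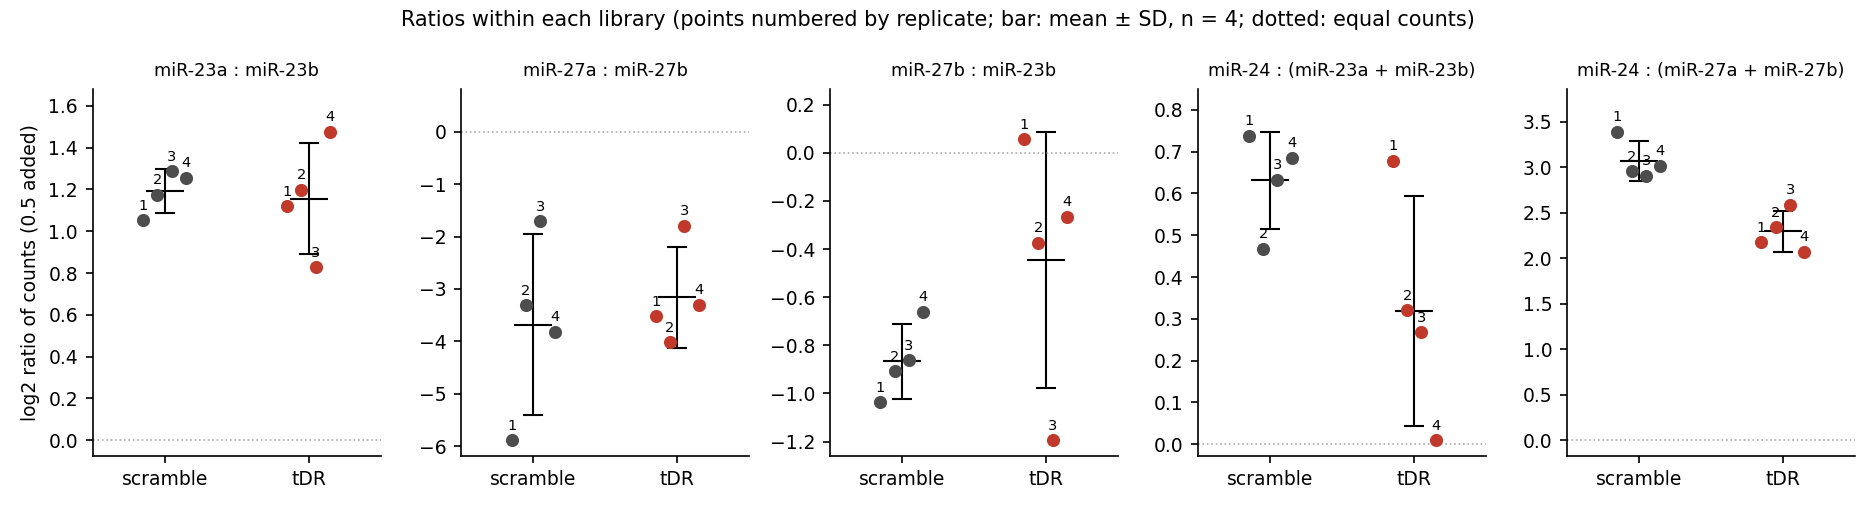
Log2 ratios of counts within each library (vertical axis, 0.5 added to each count, its own scale in each panel) for 5 pairs of members; points are libraries numbered by replicate, bars are the mean ± SD of 4 libraries, and the dotted line marks equal counts. The a to b ratio of miR-23 lies above the line and that of miR-27 below it in all 8 libraries, and the ratio of miR-24 to miR-27 is the panel in which the groups separate, at 2.91 to 3.39 and 2.07 to 2.59.

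Set against all other microRNAs, the clusters as a whole did not separate the groups. The 5 members held 1.33%, 1.05%, 1.30% and 1.20% of microRNA counts in the scramble replicates and 0.979%, 1.05%, 1.20% and 1.19% in the tDR replicates. The means, 1.22% ± 0.128 and 1.11% ± 0.107, differed by -0.114 percentage points (SD, n = 4 each, exact permutation p = 0.286, adjusted p = 0.49). This difference was -0.0714 without tDR library 1, -0.171 without scramble library 2 and -0.202 without tDR libraries 3 and 4, and it stayed below 0 with any other library left out. Of all library counts the 5 members held 0.00635%, 0.0068%, 0.0104% and 0.0113% in the scramble libraries and 0.00667%, 0.00566%, 0.00426% and 0.00492% in the tDR libraries. Within each group these values followed the order of the microRNA fraction of the libraries, highest in scramble library 4 and lowest in tDR library 3.

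Of the opposite arms of these hairpins, 2 had a row, and 0 passed the filter on low counts. hsa-miR-27b-5p, the 5′ arm of MIR27B, had 0, 5, 3 and 0 counts in the scramble replicates and 0, 1, 1 and 11 in the tDR replicates, so tDR library 4 held 11 of its 21 counts. The 3′ arm of the same hairpin summed to 321 counts. At MIR27B the 3′ arm was thus read more than the 5′ arm, while miR-24-3p, as a sum over both clusters, does not give the balance of arms at MIR24-2.

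Other microRNAs from early hypoxia lists were examined beside the clusters. Of 10 listed, 7 had a row and 6 were tested, of which 2 fell and 0 rose, where 1.36% of all tested features and 4.59% of tested microRNAs were called lower. The median of the 6 lay at -0.29 (log2 fold change), against -0.33 over all tested microRNAs and 0.02 over all features. The list was drawn up with results of these data known, so it is not independent evidence. hsa-miR-103a-3p fell by 0.80 on the log2 scale, from 157 ± 22.9 to 90.6 ± 12.4 CPM (SD, n = 4 each, edgeR adjusted p = 0.0028). Its paralog hsa-miR-107 fell by 1.24, from 13.9 ± 2.24 to 5.95 ± 2.27 CPM (SD, n = 4 each, edgeR adjusted p = 0.00478). How any reads that fit both paralogs were counted was not given in the sources used here, so the 2 falls may not be independent. hsa-miR-26a-5p and hsa-miR-26b-5p did not pass, at log2 fold changes of -0.087 (SE 0.18) and -0.23 (SE 0.20), nor did hsa-miR-181a-5p and hsa-miR-181b-5p at -0.22 (SE 0.30) and -0.35 (SE 0.25), with edgeR adjusted p from 0.457 to 0.858. hsa-miR-210-3p, the microRNA most often used as a marker of hypoxia, had 8, 7, 7 and 19 counts in the scramble and 8, 6, 3 and 1 in the tDR libraries and was too rare to be tested.

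Profiles over the 8 libraries were compared by the root mean square difference of log2 CPM, each centred on its own mean, among the 53 other tested microRNAs that averaged 100 counts or more. The closest to miR-24-3p were hsa-miR-101-3p (0.114), hsa-let-7g-5p (0.125), hsa-miR-103a-3p (0.145), hsa-miR-221-3p (0.149) and hsa-miR-92a-3p (0.158), against a median of 0.270 over the 53. For miR-23a-3p they were hsa-miR-151a-5p (0.147), hsa-miR-424-5p (0.156), hsa-miR-29a-3p (0.158), hsa-miR-7-5p (0.161) and hsa-miR-25-3p (0.193). For miR-23b-3p they were hsa-miR-30c-5p (0.150), hsa-miR-151a-5p (0.169), hsa-miR-29a-3p (0.181), hsa-miR-125a-5p (0.184) and hsa-miR-424-5p (0.185), so 3 names recurred between the copies. For miR-27b-3p they were hsa-miR-26a-5p (0.168), hsa-miR-10a-5p (0.170), hsa-miR-9-5p (0.181), hsa-let-7a-5p (0.183) and hsa-let-7f-5p (0.192), none of which was among the 5 closest to another single member. For the 5 members summed they were hsa-miR-101-3p (0.115), hsa-miR-151a-5p (0.123), hsa-let-7g-5p (0.144), hsa-miR-18a-5p (0.150) and hsa-miR-7-5p (0.151). Among the 4 tested members themselves the miR-23 copies were closest (0.174) and miR-24-3p and miR-27b-3p were farthest apart (0.431). miR-27a-3p, too rare to be tested, was left out. miR-23b-3p and miR-27b-3p averaged 62.8 and 40.1 counts, below the 100 set for the other microRNAs, which leaves more counting error in their profiles. The root mean square differences describe likeness only, and all profiles share the libraries and their scaling.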

How the data were processed

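Per the labels, small RNA of 8 HEK293 libraries was sequenced by OTTR-seq, and groups and replicate numbers come from the sample titles. The authors deposited a table of raw counts per feature and a table of normalized signal, in which each microRNA count is divided by 1 factor per library; the submitters' processing notes name hg38 as the build, and aligner, counter and annotation were not given in the sources used here. Of 2964 rows, 2 (scr and scr2) name no gene and were left out. All features were fitted with edgeR 4.0.16 (R 4.3.3): filterByExpr, TMM, a robust quasi-likelihood F test with no covariate, and a threshold of 0.05 on the Benjamini-Hochberg adjusted p over 1761 tested features; SE is the log2 fold change over the square root of F. On simulated data the fit called 83 of 94 features given a log2 change of 1, and 4 of 1515 left unchanged. Ratios used counts plus 0.5, and groups were compared by exact permutation of the absolute difference in means (70 arrangements). Alternatives used DESeq2 1.42.0 and limma 3.58.1 (1 added to the signal). Named features are the members, the opposite arms, the hypoxia list, the cell type markers and the 5 closest profiles; members and lists were chosen with earlier results of these data known. No 2 libraries of a group were copies (lowest chi-square per degree of freedom 15.5 over 12 pairs). Intervals cover counting error only.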

Additional observations from a re-analysis of the deposited data

How the results depend on the processing

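The fold changes of miR-23a-3p and miR-23b-3p kept their direction and stayed uncalled in all alternatives, closest to 0 at -0.052 and -0.020 under scaling on microRNAs alone. The call of miR-24-3p was lost under scaling on microRNAs alone (-0.37), with the replicate block (-0.71, adjusted p = 0.185), with limma on the deposited normalized signal (-0.66, adjusted p = 0.0782) and without tDR libraries 3 and 4 (-0.46), an alternative chosen after seeing the data; with each library left out it ran from -0.85 to -0.60, and the cause was not tested. miR-27b-3p turned to -0.081 under total counts and ran from -0.11 to 0.26 with a library left out, with 0.41 under scaling on microRNAs alone and 0.40 without tDR libraries 3 and 4. The number of called features was 118, but 39 with the replicate block, 194 with the DESeq2 Wald test and 65 to 164 with a library left out. Differences in the a to b ratio ran from -0.14 to 0.073 for miR-23 and from -0.21 to 1.18 for miR-27 with a library left out, and without tDR libraries 3 and 4 that of miR-27 was -0.089 and that of the miR-27a-3p share -0.0024 percentage points. Deviations of same-numbered libraries correlated at -0.345 to -0.120. Differently numbered libraries were not compared, so these values cannot decide whether replicate numbers pair the libraries. With replicate number as a block, the exact sign-flip test of 4 differences cannot go below p = 0.125, so it cannot pass for any ratio or share. miR-27a-3p could be fitted without the filter alone, and miR-27b-3p not with a mean count of at least 50. Depth limits miR-27a-3p most, with 31 counts in all.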

Other observations

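miR-24-3p alone was also set against the sum of the 337 other microRNA rows, a comparison chosen after seeing the data. The log2 ratio was -7.17 ± 0.206 in scramble and -7.50 ± 0.0905 in tDR libraries (SD, n = 4 each), a difference of -0.33 with 3 of 4 tDR libraries below every scramble library (exact two-sided permutation p = 0.0571). Of the 4 kidney tubule markers 3 were tested between groups, and whether they differ from each other was not tested. hsa-miR-194-5p, hsa-miR-192-5p and hsa-miR-30a-5p stood at -0.57 (SE 0.25), -0.076 (SE 0.34) and 0.13 (SE 0.29) as log2 fold changes, and none passed edgeR's test (adjusted p = 0.192, 0.932 and 0.860). hsa-miR-204-5p, too rare to be tested, had 3, 10, 0 and 3 counts in the scramble replicates and 0 in each tDR library, where a count of 0 allows 3.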
